A study of Mus musculus with 12 samples.

Results

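NF-kB subunits and feedback genes were described as a set of 10 genes chosen by symbol, Nfkb1, Nfkb2, Rela, Relb, Nfkbia, Nfkbiz, Nfkbie, Bcl3, Tnfaip3 and Icam1. All 10 were among the 15672 genes of the deposited table, and all 10 passed the filter on low values in the SG libraries by themselves. Expression was measured by bulk RNA-seq in 12 libraries of mouse tumour tissue labelled MB, the usual abbreviation of medulloblastoma, at end point. SG tumours (fSMO-M2;hGFAPcre) expressed the oncogenic SMO-M2 variant of Smoothened, the transducer of Hedgehog signals, from a Cre-dependent allele, and carried a Cre recombinase driven by the human GFAP promoter, which is active in neural progenitors as well as astrocytes. YSGr tumours (fYap1;fSMO-M2;hGFAPcre) carried both of these and a floxed allele of Yap1, the transcriptional coactivator restrained by the Hippo pathway, and are called rescued in the series' description. There were 3 libraries each of SG males (1 to 3), SG females (4 to 6), YSGr males (7 to 9) and YSGr females (10 to 12). The labels give no age, animal, litter or batch, so the p-values refer to the variation among these libraries, some or all of which may be technical.

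NF-kB is a family of dimeric transcription factors. In resting cells the dimers are held in the cytoplasm by inhibitors of the IkB group, and signals from cytokine and pattern-recognition receptors release them by destroying the inhibitor. Many of the genes switched on in this way encode parts of the pathway itself, such as the inhibitor IkB-alpha and the ubiquitin-editing enzyme A20, which form feedback loops. In brain and its tumours, microglia, infiltrating leukocytes, endothelium and reactive astrocytes are all known to use the pathway. Values from tissue are sums over these cells and the tumour cells, and fewer cells of a type and less RNA per cell cannot be told apart.

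Yap1, the gene targeted in YSGr, was checked first. It had 211, 174 and 201 estimated reads in the SG males, 205, 208 and 253 in the SG females, 33, 29 and 14 in YSGr males, and 9, 12 and 7 in YSGr females. Every YSGr library was thus far below every SG library (log2 fold change -3.64, limma adjusted p = 1.1e-06). By sex it was -4.32 in females (limma adjusted p = 9.9e-06) and -2.96 in males (limma adjusted p = 0.00027). The difference between the sexes had an unadjusted limma p of 0.0051 but did not pass after adjustment (adjusted p = 0.43). Estimated reads per library were even, at 8854766 to 9478650. SG male 2 and YSGr male 8 stood apart within their genotypes, with the lowest sums of medulloblastoma markers (4490 and 3453 CPM), and were left out together as a check. Without them Bcl3 and Nfkbiz were again the 2 of 10 NF-kB genes that passed with the sexes averaged, in females and in males.

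Bcl3 and Nfkbiz, which encode the nuclear IkB proteins Bcl-3 and IkB-zeta, were higher in YSGr than in SG tumours of both sexes. The subunit genes and the genes of the classical cytoplasmic inhibitors were not past the threshold. In the limma test over all 14147 genes that passed the filter, with the sexes weighted equally, 2 of the 10 genes rose (Benjamini-Hochberg adjusted p under 0.05) and 0 fell. Over all genes tested, 11.4% passed (6.16% risen and 5.27% fallen). The median log2 fold change of the 10 genes was 0.27, against 0.00 over all genes tested, and 7 of the 10 had a positive sign. In 2 of the 10, again Bcl3 and Nfkbiz, every YSGr library lay above every SG library, which held for 2.93% of all genes tested. With library weights in the fit 6 of the 10 rose, adding Relb, Nfkbie, Tnfaip3 and Icam1, but that setting called 4986 of all 14147 genes.

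**Figure D1:**
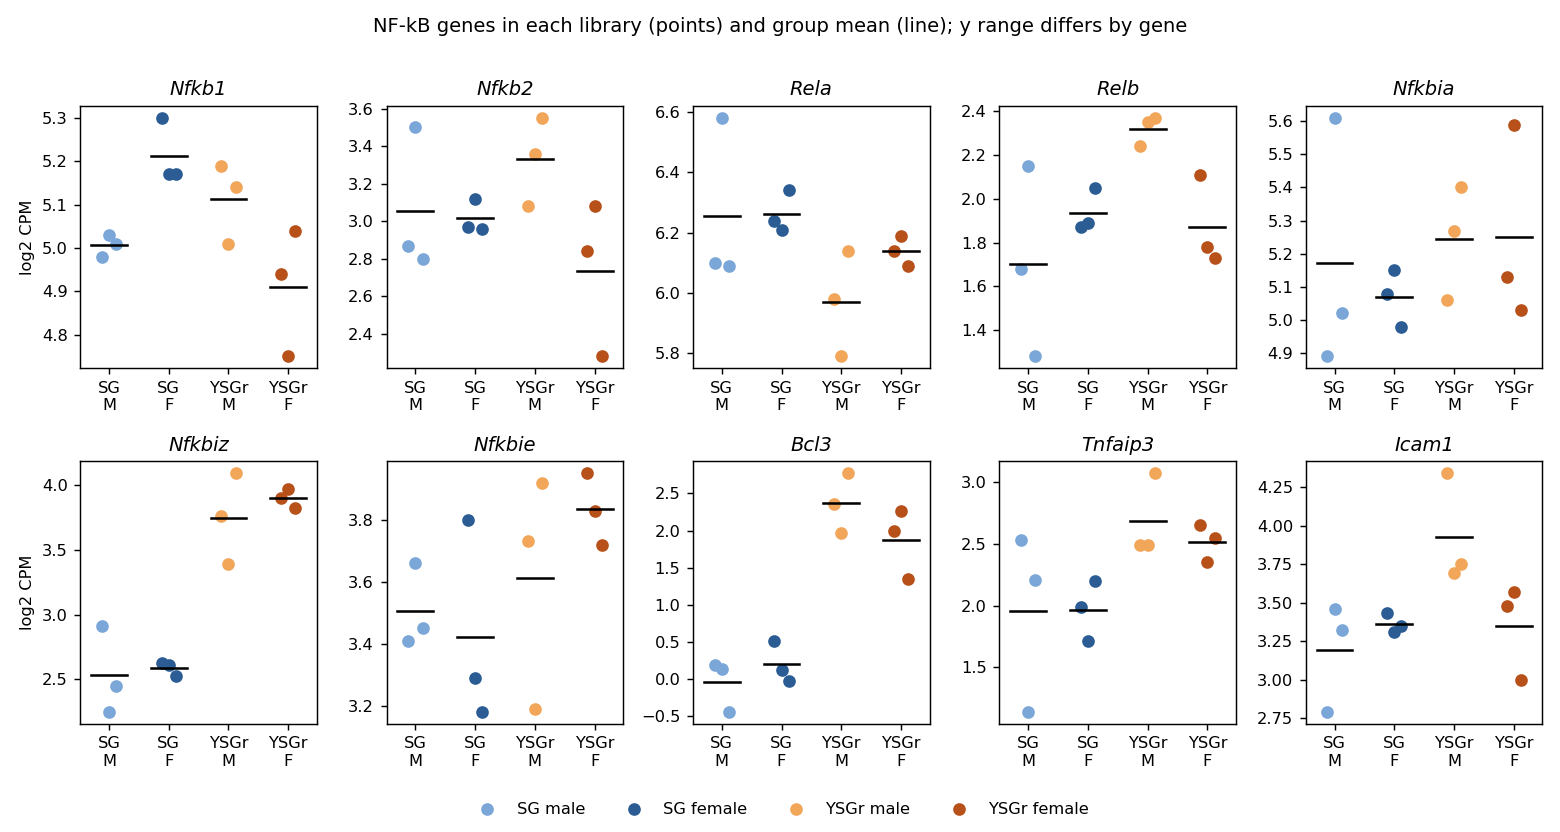
Expression of the 10 NF-kB genes in log2 CPM (y axis, with its own range for each gene) in the 12 libraries (points), by group of genotype and sex (x axis; M, male; F, female), with the group mean as a line. For Bcl3 and Nfkbiz all 6 YSGr points lie above all 6 SG points, and for the other 8 genes the genotypes overlap.

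Bcl-3 is an atypical IkB protein that enters the nucleus, binds p50 and p52 homodimers and can activate or repress their targets. The gene lies on chromosome 7 at 19808462 to 19822770 (minus strand, mm10), 179023 bases from Relb. It had 9, 8 and 5 estimated reads in the SG males and 12, 8 and 7 in the SG females. In YSGr it had 49, 35 and 64 in males, and 36, 44 and 21 in females. Every YSGr library thus held more Bcl3 reads than the SG library with most, and YSGr female 12 was the lowest of the YSGr libraries.

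On the log2 CPM scale, the log2 of counts scaled to library size with a prior count added, Bcl3 rose from 0.08 ± 0.31 (SD, n = 6) in the SG to 2.12 ± 0.48 (SD, n = 6) in the YSGr libraries. The log2 fold change was 2.04 (SE 0.24, limma adjusted p = 0.00029), a 4.11-fold difference that exceeded that of 99.5% of the genes tested. Since the prior count shrinks differences at so few reads, the plain means differed by more, at 0.866 CPM in SG and 4.32 CPM in YSGr. By group the order was YSGr male at 2.37 ± 0.40 (SD, n = 3), YSGr female at 1.87 ± 0.47 (SD, n = 3), SG female at 0.20 ± 0.28 (SD, n = 3) and SG male at -0.04 ± 0.35 (SD, n = 3). Libraries overlapped between the 2 YSGr groups and between the 2 SG groups. An antisense gene, Gm16175, overlaps a Bcl3 exon, and whether reads were counted by strand is not given in the sources used here.

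IkB-zeta, the product of Nfkbiz, is another nuclear IkB protein, itself induced by interleukin-1 and Toll-like receptor signals, and is needed for a later wave of targets that includes Lcn2. Nfkbiz lies on chromosome 16 at 55811375 to 55838899 (minus strand). Its level was 2.91, 2.25 and 2.45 log2 CPM in the SG males and 2.63, 2.61 and 2.53 in the SG females. In the YSGr males it was 3.76, 3.39 and 4.09, and in the YSGr females 3.90, 3.97 and 3.82. The lowest YSGr library, male 8, thus stood above the highest SG library, male 1.

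Nfkbiz rose from 2.56 ± 0.22 log2 CPM (SD, n = 6) in SG to 3.82 ± 0.24 (SD, n = 6) in YSGr. This was a log2 fold change of 1.26 (SE 0.16, limma adjusted p = 0.00044), or 2.39-fold. The spread among the YSGr females was small, with an SD of 0.08 (n = 3), against 0.35 (n = 3) in the YSGr males. Nfkbid, the gene of the third nuclear IkB protein, IkB-NS, had a log2 fold change of 0.44 (SE 0.19, limma adjusted p = 0.15), with 16 to 22 reads in SG and 19 to 34 in YSGr. The genotypes overlapped for Nfkbid.

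The classical inhibitors, which hold dimers in the cytoplasm, were closer between the genotypes. Nfkbia encodes IkB-alpha, the fast feedback inhibitor (chromosome 12, 55489410 to 55492647). It ran at 4.89, 5.61 and 5.02 log2 CPM in the SG males, 5.08, 5.15 and 4.98 in the SG females, 5.06, 5.27 and 5.40 in YSGr males, then 5.13, 5.59 and 5.03 in YSGr females. SG male 2 was the highest of all 12 libraries, and the genotypes overlapped throughout. The log2 fold change was 0.12 (SE 0.14, limma adjusted p = 0.60), with a 95% confidence interval of -0.19 to 0.43.

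Nfkbie, which encodes IkB-epsilon (chromosome 17, 45555703 to 45563169), was at 3.47 ± 0.23 log2 CPM (SD, n = 6) in the SG and 3.72 ± 0.28 (SD, n = 6) in the YSGr libraries. The log2 fold change was 0.26 (SE 0.16, limma adjusted p = 0.30, interval -0.09 to 0.60). In females all 3 YSGr libraries, at 3.72 to 3.95, were above 2 of the 3 SG libraries, with SG female 4 at 3.80 between them. Nfkbib, the gene of IkB-beta, was at -0.23 (SE 0.13, limma adjusted p = 0.27). None of the 3 cytoplasmic inhibitor genes passed the threshold.

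Because several feedback genes are known to be driven through kappaB sites, the letters of the 10-base kappaB consensus were searched on both strands of RefSeq promoter windows (GRCm38.p6) of 300 bases, from 250 before to 50 after a start site. Windows were matched by symbol for 7 of the 10 genes, Nfkb2, Rela, Nfkbia, Nfkbie, Bcl3, Tnfaip3 and Icam1. At least 1 match was found for 5 of the 7, Nfkb2, Nfkbia, Nfkbie, Bcl3 and Tnfaip3, against 5.14% of the 27025 genes in the table (4.51% of its 32851 windows). A looser form, GGGNNNNNCC, was present in all 7 and in 53.5% of all genes. A match is a description of the letters and not of a bound site. The 5 genes with a match include 1 that rose, Bcl3, and 4 that did not pass the threshold. The whole windows of Bcl3, which rose, and Nfkbia, which did not pass, are shown on the minus strand of each, 5′ to 3′, with matches to the consensus in capitals.
Bcl3, chr7:19822706-19823005: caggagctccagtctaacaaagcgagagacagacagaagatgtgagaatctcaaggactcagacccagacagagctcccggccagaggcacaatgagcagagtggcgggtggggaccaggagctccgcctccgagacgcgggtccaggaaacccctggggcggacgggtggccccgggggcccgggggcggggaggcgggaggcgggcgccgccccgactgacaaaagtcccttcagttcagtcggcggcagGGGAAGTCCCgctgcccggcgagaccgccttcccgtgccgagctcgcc
Nfkbia, chr12:55492598-55492897: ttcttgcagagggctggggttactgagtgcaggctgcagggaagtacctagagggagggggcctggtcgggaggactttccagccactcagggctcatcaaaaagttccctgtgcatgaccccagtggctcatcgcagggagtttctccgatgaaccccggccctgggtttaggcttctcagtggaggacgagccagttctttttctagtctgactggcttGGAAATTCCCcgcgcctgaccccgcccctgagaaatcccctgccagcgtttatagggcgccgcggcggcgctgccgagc
The Bcl3 match begins 2 bases after the annotated start site and the Nfkbia match 29 bases before it, both reading as the consensus on the opposite strand. The matches in the other 3 genes are shown with 10 bases on each side, on the strand of the gene. Nfkb2 has 3 annotated windows. The first stretch shown for it holds 2 overlapping matches, and a match that lies in 2 windows is given once.
Nfkb2, chr19:46304688-46304717: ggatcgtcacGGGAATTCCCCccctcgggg
Nfkb2, chr19:46304716-46304745: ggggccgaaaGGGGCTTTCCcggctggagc
Nfkb2, chr19:46305449-46305478: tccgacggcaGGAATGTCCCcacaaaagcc
Nfkb2, chr19:46305695-46305724: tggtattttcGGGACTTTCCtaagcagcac
Nfkbie, chr17:45555584-45555613: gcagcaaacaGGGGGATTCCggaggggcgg
Tnfaip3, chr10:19015516-19015545: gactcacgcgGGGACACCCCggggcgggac
Tnfaip3, chr10:19015403-19015432: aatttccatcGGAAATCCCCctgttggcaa

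The subunit genes themselves were not past the threshold in either direction. Rela encodes p65, the activating subunit of the classical dimer (chromosome 19, 5637483 to 5648130). It stood at 6.26 ± 0.18 log2 CPM (SD, n = 6) in the SG and 6.06 ± 0.15 (SD, n = 6) in the YSGr libraries, with a log2 fold change of -0.20 (SE 0.11, limma adjusted p = 0.22, interval -0.43 to 0.03). SG male 2 was the highest at 6.58 and YSGr male 8 the lowest at 5.79. The other 10 libraries lay between 5.98 and 6.34. Nfkb1 encodes p105, the precursor of the DNA-binding subunit p50 (chromosome 3, 135584655 to 135691547). It was at 5.11 ± 0.12 (SD, n = 6) and 5.01 ± 0.16 (SD, n = 6), a log2 fold change of -0.10 (SE 0.09, limma adjusted p = 0.50, interval -0.30 to 0.10).

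Nfkb2 and Relb form the non-canonical arm, in which p100 is processed to p52 and pairs with RelB. Nfkb2 (chromosome 19, 46304320 to 46312385) was at 2.87, 3.50 and 2.80 log2 CPM in the SG males and 2.97, 3.12 and 2.96 in the SG females. In YSGr it was at 3.08, 3.36 and 3.55 in males, and at 2.84, 3.08 and 2.28 in females. The genotypes overlapped, and the log2 fold change was 0.00 (SE 0.18, limma adjusted p = 0.99, interval -0.40 to 0.39). Exons of Nfkb2 are overlapped on the other strand by Psd and AC114539.1, so part of its reads is uncertain. Relb (chromosome 7, 19606217 to 19629438) had only 21 to 38 reads in SG and 28 to 48 in YSGr, and its log2 fold change was 0.28 (SE 0.18, limma adjusted p = 0.33, interval -0.12 to 0.67). Rel, which encodes the lymphoid and myeloid subunit c-Rel, was at 0.20 (SE 0.16, limma adjusted p = 0.43).

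Tnfaip3 and Icam1 are targets with roles outside the dimer and inhibitor families. Tnfaip3 encodes A20, which edits ubiquitin chains on the signalling complexes and ends the response (chromosome 10, 19000910 to 19015657). It had 54, 18 and 42 reads in the SG males, 37, 28 and 40 in the SG females, 54, 51 and 79 in YSGr males, and 58, 47 and 51 in YSGr females. SG male 2, at 1.14 log2 CPM, was the lowest of all and SG male 1, at 2.53, lay within the YSGr range. The log2 fold change of 0.64 (SE 0.23, interval 0.13 to 1.15) had an unadjusted p of 0.018 but did not pass the limma test after adjustment (adjusted p = 0.096).

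Icam1 encodes the adhesion molecule to which leukocyte integrins bind on endothelium and glia (chromosome 9, 21015985 to 21028817). It was at 2.79, 3.46 and 3.32 log2 CPM in the SG males and 3.43, 3.31 and 3.35 in the SG females. In YSGr it was at 4.34, 3.69 and 3.75 in males, and at 3.48, 3.57 and 3.00 in females. The YSGr males were above all SG libraries, whereas of the YSGr females 2 were just above them and female 12 was among them. An antisense gene, Gm47079, overlaps an Icam1 exon, with the same doubt on strand as for Bcl3. Averaged over the sexes the log2 fold change was 0.36 (SE 0.17, limma adjusted p = 0.18, interval -0.01 to 0.74).

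Levels were compared between genes per kilobase of annotated exon (GENCODE M21, union over transcripts). In SG tumours Rela and Nfkbia were the most abundant of the 10, at 25.0 and 21.8 CPM per kb, and Bcl3 the least, at 0.350. In YSGr tumours Nfkbia and Rela still led, at 23.7 and 21.7 CPM per kb. Bcl3, at 1.75 CPM per kb, was there above Relb at 1.06 and Tnfaip3 at 0.822, and Nfkbiz moved from 1.15 in SG to 2.81 in YSGr. Per kb, Nfkbiz was below Nfkb1 (2.86) and Nfkb2 (1.77) in SG. In YSGr it was above both (2.67 and 1.80), and Bcl3 was close to Nfkb2. The order of Nfkbiz and Nfkb1 in YSGr depends on the union length, 5018 bases for Nfkbiz and 12061 for Nfkb1. Not divided by length, Nfkbiz was below Nfkb1 in YSGr, at means of 14.1 and 32.2 CPM. Both rising genes remained below Rela and Nfkbia.

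**Figure D2:**
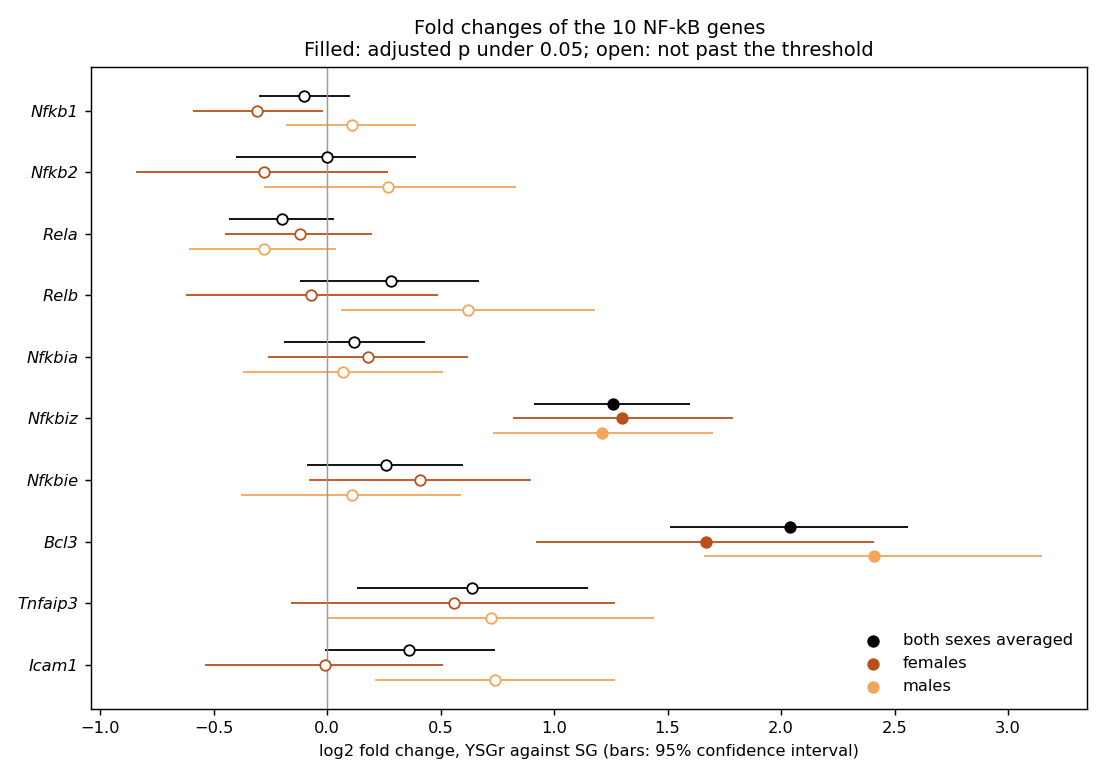
Log2 fold change of YSGr against SG (x axis) for each of the 10 genes (y axis), averaged over the sexes (black), in females (dark orange) and in males (light orange). Bars are 95% confidence intervals from the limma fit, and filled symbols passed an adjusted p of 0.05, as Bcl3 and Nfkbiz did in all 3 comparisons.

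Within females, Bcl3 and Nfkbiz were again the 2 of 10 genes that rose, and 0 fell, against 3.01% of all genes that passed (1.15% risen and 1.87% fallen). Nfkbiz was higher by 1.30 (log2 fold change, SE 0.22, limma adjusted p = 0.0089) and Bcl3 by 1.67 (SE 0.34, limma adjusted p = 0.022). The female calls rested on few libraries. For Nfkbiz the adjusted p was 0.051 without SG female 5 and 0.058 without SG female 6, with log2 fold changes of 1.31 and 1.28. For Bcl3 it was 0.098 and 0.11 when SG female 5 or 6 was left out, and 0.095 and 0.057 when YSGr female 10 or 11 was left out, with log2 fold changes of 1.47 to 1.63. Of all genes tested, 426 passed in females with all libraries, 96 and 94 without SG female 5 and 6, 136 without YSGr female 10 and 459 without YSGr female 11.

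The remaining 8 genes did not pass in females. The 3 YSGr females were below the 3 SG females for Nfkb1 (4.94, 4.75 and 5.04 against 5.30, 5.17 and 5.17 log2 CPM) and for Rela. They were above them for Nfkbiz, Bcl3 and Tnfaip3. Such separation of 3 from 3 libraries was common in females, with 13.9% of all genes lower and 14% higher. The log2 fold change of Nfkb1 was -0.31 (SE 0.13, limma adjusted p = 0.28) and that of Icam1 was -0.01 (SE 0.24, limma adjusted p = 0.99, interval -0.54 to 0.51).

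Within males, whose libraries are separate from those of the females, 2 of the 10 genes rose and 0 fell, against 7.85% of all genes that passed (4.43% risen and 3.42% fallen). Bcl3 was higher by 2.41 (log2 fold change, SE 0.34, limma adjusted p = 0.0036), or 5.30-fold, and Nfkbiz by 1.21 (SE 0.22, limma adjusted p = 0.012), or 2.32-fold. Both calls held when any 1 of the 12 libraries was left out. Relb at 0.62 (SE 0.26, limma adjusted p = 0.13), Icam1 at 0.74 (SE 0.24, limma adjusted p = 0.072) and Tnfaip3 at 0.72 (SE 0.33, limma adjusted p = 0.16) did not pass. The 3 YSGr males were above the 3 SG males for Bcl3, Nfkbiz, Relb and Icam1 (16.3% of all genes), and for 0 of the 10 were they all below (18% of all genes). Without SG male 2 the male log2 fold change of Tnfaip3 was 0.31, with an adjusted p of 0.47.

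Whether the effect of genotype differed by sex was tested as an interaction, which passed for 0 of the 10 genes, as for nearly all genes (0.00707% passed). At an unadjusted p under 0.05 there were 2, Nfkb1 with a difference (female minus male) of -0.41 (SE 0.18, limma adjusted p = 0.43) and Icam1 with -0.75 (SE 0.34, limma adjusted p = 0.43). For Bcl3 the female minus male difference was -0.74 (SE 0.49, limma adjusted p = 0.51, interval -1.79 to 0.31), and for Nfkbiz the difference was 0.09 (SE 0.32, limma adjusted p = 0.91, interval -0.59 to 0.78). A sex difference in the response of Bcl3 was thus not detectable with 3 libraries a group.

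Females and males were also compared within a genotype. Within SG 0 of the 10 genes passed (0.0353% of all genes did, 0.0283% lower in females) and 0 had an unadjusted p under 0.05. Within YSGr 0 passed (0.0778% of all genes did, 0.0212% higher and 0.0565% lower in females). There 2 had an unadjusted p under 0.05, both lower in females, Nfkb2 at -0.60 (log2 difference, SE 0.26, limma adjusted p = 0.25) and Icam1 at -0.58 (SE 0.24, limma adjusted p = 0.24). The astrocyte and medulloblastoma marker sums, given further down, also separated the sexes within YSGr. Their part in the differences of Nfkb2 and Icam1 was not tested. The YSGr library that was most often lowest was female 12, for 5 of the 10 genes, Nfkb2, Relb, Nfkbia, Bcl3 and Icam1. Male 9 was most often highest, for 5 of the 10, Nfkb2, Relb, Nfkbiz, Bcl3 and Tnfaip3. In SG, male 2 was the highest for Nfkb2, Rela, Relb, Nfkbia and Icam1 and the lowest for Nfkbiz and Tnfaip3, so it did not stand apart in 1 direction.

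The other genes of the pathway were taken from 7 lists ordered by role, with 73 of 86 genes tested (84 were in the table), of which 17 rose and 1 fell, where 6.16% and 5.27% of all genes did. Of the 73 genes, 10 passed the filter on low values only through the YSGr libraries and so had to be higher there, and 8 of the 17 are among them. In the 63 that passed it in SG, 9 rose, beside 764 of all 13680 genes that passed it there. Of 18 further target genes tested, 11 rose and 0 fell, but 6 of the 11 (Ccl2, Cxcl1, Cxcl2, Ptgs2, Saa3 and Mmp9) passed the filter only through YSGr, and targets low in both genotypes (Sele, Selp, Ccl5, Il6 and Csf2) were not tested. Of the 12 that passed it in SG, 5 rose. The smallest p-values were those of the chemokine genes Cxcl1 at 3.55 (SE 0.24, limma adjusted p = 5.1e-06) and Ccl2 at 2.57 (SE 0.20, limma adjusted p = 1.6e-05), Lcn2, the gene of a siderophore-binding protein, at 5.67 (limma adjusted p = 2.4e-05) and Cxcl10 at 3.37 (limma adjusted p = 0.00012). Cxcl1 had 3 to 8 reads per SG library and 64 to 108 per YSGr library, and Lcn2 0 to 16 and 250 to 759, so that its fitted fold depends on the prior count. These targets were listed with their rise in these samples already known, so their count is not independent evidence of a direction.

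**Figure D3:**
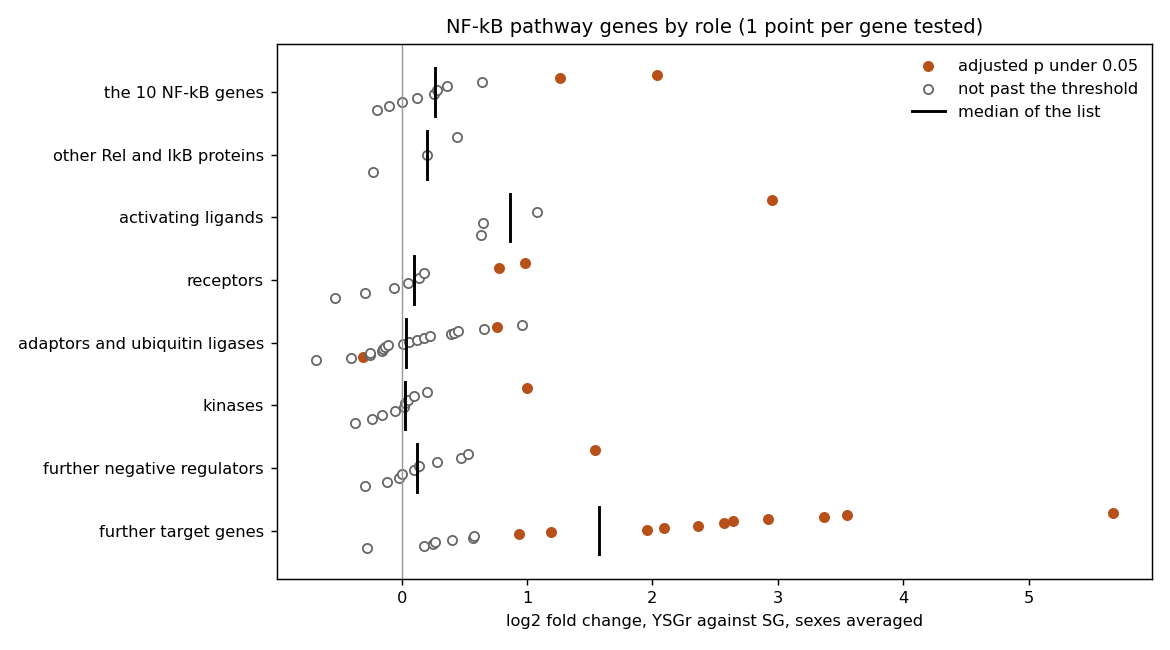
Log2 fold change of YSGr against SG, sexes averaged (x axis), for the 10 NF-kB genes and the 7 lists of other pathway genes (y axis), with 1 point per gene tested, filled where the adjusted p was under 0.05, and the list median as a black line. Of the 18 further target genes, the points of 6 passed the filter on low values only through YSGr, and the medians of the receptor, adaptor and kinase lists lie between 0.03 and 0.10.

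Among activating ligands 4 of 9 were tested, and 2 of these, Il1b and Tnf, passed the filter only through YSGr, while Lta, Ltb, Tnfsf11 and Tnfsf13b were too low. The 1 that rose was Il1b, the gene of interleukin-1 beta. It had 0 to 4 reads in SG and 10 to 40 in YSGr, with a log2 fold change of 2.95 (SE 0.36, limma adjusted p = 4.0e-04) that depends on the prior count. Tnf, which encodes the founding member of the TNF family, was at 1.08 (SE 0.34, limma adjusted p = 0.058) with 2 to 4 reads in SG and 4 to 22 in YSGr. Tnfsf12, which encodes TWEAK, was at 0.65 (limma adjusted p = 0.059) and Il1a at 0.63 (limma adjusted p = 0.068).

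With the sexes averaged, 2 of 8 receptors rose, where 6.16% of all genes did. Il1r1, which encodes the signalling receptor of interleukin-1, was at 0.98 (SE 0.18, limma adjusted p = 0.0037). Tnfrsf1b, which encodes TNF receptor 2, was at 0.78 (SE 0.14, limma adjusted p = 0.0034). In females alone neither passed, at 0.49 (limma adjusted p = 0.39) and 0.45 (limma adjusted p = 0.29). In males both passed, at 1.48 (limma adjusted p = 0.0078) and 1.11 (limma adjusted p = 0.0089). The interaction passed for neither (limma adjusted p = 0.43 for both). The lymphotoxin beta receptor gene Ltbr was at -0.29 (limma adjusted p = 0.089) and Cd40 at -0.53 (limma adjusted p = 0.31). Of 20 adaptors and ubiquitin ligases 1 rose and 1 fell, near the shares over all genes. The first was Myd88, the adaptor shared by interleukin-1 and most Toll-like receptors, at 0.76 (SE 0.18, limma adjusted p = 0.020). Myd88 passed in males (1.01, limma adjusted p = 0.038) but not in females (0.50, limma adjusted p = 0.41). Irak1, a kinase that Myd88 recruits, fell by 0.31 on the log2 scale (SE 0.09, limma adjusted p = 0.042). With the sexes averaged it was the single decrease past the threshold among the 73 genes. Irak1 did not pass in females alone (limma adjusted p = 0.27) or in males alone (limma adjusted p = 0.12). The decrease was not called without SG male 1 or 3, any SG female, YSGr male 8 or 9, or YSGr female 10. It was also not called without a variance trend. Birc3, which encodes cIAP2, at 0.66 (limma adjusted p = 0.074) and Traf1 at -0.68 (limma adjusted p = 0.081) did not pass.

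Of 10 kinases 1 rose, near the 6.16% of all genes that did. It was Ikbke, which encodes the inducible kinase IKK-epsilon, at 1.00 (SE 0.27, limma adjusted p = 0.031). Ikbke did not pass in females alone (limma adjusted p = 0.36) or in males alone (limma adjusted p = 0.065). With the sexes averaged, Tab1 at -0.37 (limma adjusted p = 0.062), Map3k7 at -0.24 (limma adjusted p = 0.20) and Tbk1 at 0.20 (limma adjusted p = 0.28) did not pass. In males alone Tab1 passed as lower in YSGr, at -0.66 (limma adjusted p = 0.036). In females alone Tab1 did not pass, at -0.07 (limma adjusted p = 0.91). Of 10 further negative regulators 1 rose, near the same share, and it passed the filter only through YSGr. It was Zc3h12a, which encodes the RNase Regnase-1 that degrades inflammatory transcripts, at 1.54 (SE 0.32, limma adjusted p = 0.0090). Zc3h12a had 3 to 12 reads in SG and 13 to 33 in YSGr. It did not pass in females alone (limma adjusted p = 0.11) or in males alone (limma adjusted p = 0.052). The deubiquitinase gene Cyld at 0.47 (limma adjusted p = 0.071), Rnf11 at 0.28 (limma adjusted p = 0.072) and Irak3 at 0.53 (limma adjusted p = 0.18) did not pass. The 3 other Rel and IkB genes, given above, had 0 risen and 0 fallen, with 1, Nfkbid, at an unadjusted p under 0.05.

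The tissue and the cells in it were checked against marker lists, summed as CPM per library. The counts risen and fallen, with the sexes averaged, stand beside 6.16% and 5.27% of all genes tested. Granule neuron progenitor and medulloblastoma markers (10 of 10 in the table, 0 risen and 3 fallen) were abundant in all libraries. They summed to 4490 to 5560 CPM in SG and 3453 to 5740 in YSGr, lowest in YSGr male 8. Split by sex, the YSGr females (5176 to 5740 CPM) were all above the YSGr males (3453 to 4853 CPM). The SG females (5419 to 5560 CPM) were above the SG males (4490 to 5388 CPM) by a narrow gap. The most abundant of these markers were Zic1, Barhl1 and Sfrp1, so the sum can hide changes in the others. Gli1 had 2676 to 3364 reads per SG library and 1352 to 2361 per YSGr library, while 4 of the 10 had a positive log2 fold change. Infiltrating macrophage and monocyte markers (8 of 10 tested, 5 risen, of which Ccr2 passed the filter only through YSGr) summed to 128.4 to 190.6 CPM in SG and 268.8 to 573.9 in YSGr, mostly from Lyz2. Neutrophil markers (5 of 10 tested, 5 risen) summed to 10.6 to 14.1 CPM in SG and 14.9 to 34.4 in YSGr, a narrow gap. Of these 5, S100a8, S100a9, Cxcr2 and Mmp8 passed the filter only through YSGr, and most of the sum was Csf3r, at 90 to 134 reads per SG library and 112 to 211 per YSGr library, a gene that other myeloid cells also express. Retnlg had 0 to 1 reads per SG library and 3 to 10 per YSGr library, and Mmp8 had 0 reads in every SG library. Like Bcl3 and Nfkbiz, the macrophage and the neutrophil sums were thus higher in every YSGr library than in every SG library. Their part in the differences of Bcl3 and Nfkbiz was not tested.

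Microglia markers (10 of 10 tested, 0 risen and 1 fallen) summed to 410.3 to 484.3 CPM in SG and 392.5 to 514.8 in YSGr, and overlapped. Endothelial markers (10 of 10 tested, 1 risen and 3 fallen) summed to 99.1 to 156.8 CPM in SG and 76.2 to 128.4 in YSGr. In females alone they did not overlap, at 128.1 to 156.8 CPM in SG and 76.2 to 97.8 in YSGr. In males they overlapped, at 99.1 to 112.5 and 76.8 to 128.4 CPM. A relation of the endothelial sum to Icam1 was not tested. Astrocyte markers (10 of 10 tested, 1 risen and 1 fallen) ranged from 2091 to 3293 CPM in SG and 1530 to 3653 in YSGr, lowest in YSGr female 12. Split by sex, the YSGr males (3003 to 3653 CPM) were all above the YSGr females (1530 to 2949 CPM). Of the 10 genes, 0 had a positive female minus male difference within YSGr, and 0 passed. In SG the sexes overlapped for this sum. T and NK cell markers (1 of 10 tested, 0 risen) summed to 4.97 to 7.21 CPM in SG and 4.55 to 20.1 in YSGr, mostly from Cd4, which macrophages and microglia can also express. Cd3e had 0 to 1 reads per SG library and 0 to 2 per YSGr library. B and plasma cell markers (1 of 8 tested, 0 risen) summed to 0.737 to 3.25 CPM in SG and 1.15 to 2.50 in YSGr. Within YSGr, the library with most Bcl3 and Nfkbiz, male 9, had macrophage markers at 385.2 CPM, below 4 of the other 5 YSGr libraries. Its neutrophil markers were at 30.8 CPM, the second highest. Female 12, with least Bcl3, had these sums at 388.3 and 14.9 CPM. Male 8, with least Nfkbiz, had them at 557.8 and 34.4 CPM. A relation of these sums to the 2 genes was not tested.

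**Figure D4:**
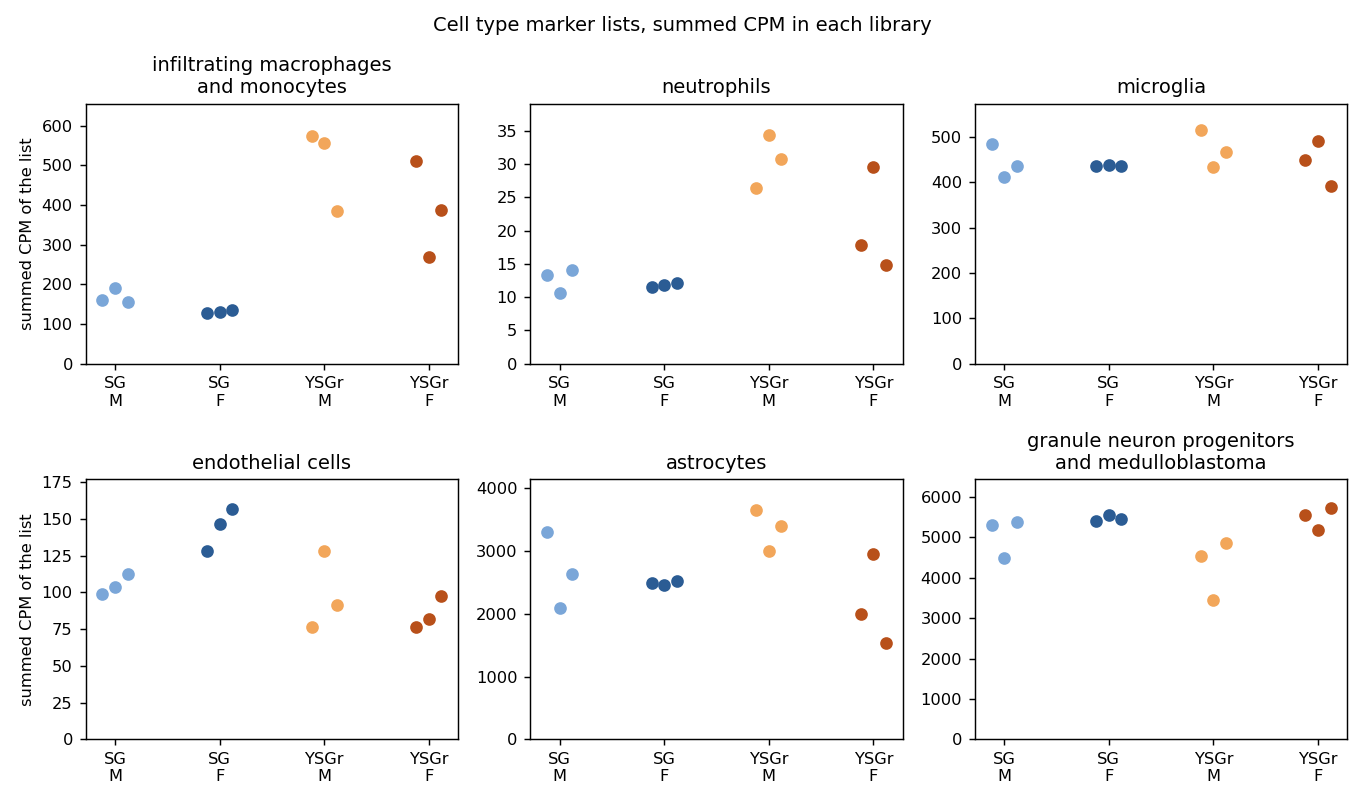
Summed CPM (y axis, from 0) of the markers of 6 cell types in each of the 12 libraries (points), by group of genotype and sex (x axis; M, male; F, female). The macrophage and monocyte sum lies at 128.4 to 190.6 CPM in SG and 268.8 to 573.9 in YSGr, the neutrophil sum also separates the genotypes, and the other 4 overlap.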

How the data were processed

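Bulk RNA-seq of 12 tumour libraries was analysed from 1 table of log2 CPM values that the authors deposited. Per the submitters' processing notes, edgeR 3.30.3, RSEM 1.2.12, Trimmomatic 0.33, Picard 1.95 and Bowtie2 were used with mm10. What each tool did, and whether counting used strand, is not given in the sources used here. The members, gene lists and tests were chosen with earlier results of these data known. Genes with log2 CPM above 0 in at least 3 libraries (14147 of 15672) were fitted in limma 3.58.1 (R 4.3.3) with 1 coefficient per group of genotype and sex and a trended variance. P-values were Benjamini-Hochberg adjusted over all of them, with a threshold of 0.05. Reads were estimated from the equal steps of the back-transformed values, with 92.1% to 93.1% of a library's genes within 0.02 reads of a whole number. CPM values were computed from these reads, and 1 read was worth 0.100 to 0.111 CPM. All 10 NF-kB genes were named, with up to 4 genes of smallest p per pathway list. The fit was tested on simulated data. There were 21 alternative settings, of which 12 left out 1 library each.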

Additional observations from a re-analysis of the deposited data

Results flagged for a closer look

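Each of the 10 genes was checked for a library far from the other 5 of its genotype, which made 20 checks, and chance flags about 1 in 20 groups. There were 3 such values. Nfkbia, the gene of IkB-alpha, was at 5.61 log2 CPM in SG male 2, where the gap to the next library was 0.640 of the whole range, past Dixon's limit for 6 libraries. Nfkbie, the gene of IkB-epsilon, was at 3.19 log2 CPM in YSGr male 8 (0.703 of the range). Icam1 was at 2.79 log2 CPM in SG male 1 (0.784 of the range). Bcl3 and Nfkbiz had no such library in either genotype.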

How the results depend on the processing

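With the sexes averaged, Bcl3 and Nfkbiz passed in 12 of 12 fits that left out 1 library and in 9 of 9 other settings, with log2 fold changes of 1.94 to 2.22 and 1.17 to 1.35. In females the count of NF-kB genes called ranged from 0 to 2 when 1 library was left out. With library weights in the fit, the counts were 6 with the sexes averaged, 5 in females (4 higher, and Nfkb1 lower) and 4 in males. Of the other pathway genes 37 passed against 18. That setting raised the calls over all 14147 genes too, from 1617 to 4986 with the sexes averaged and from 426 to 4483 in females. The stricter filter left 12 pathway genes called. Nfkb2 with the sexes averaged, at 0.00 with all libraries, ranged from -0.09 to 0.11 with 1 library left out, so it has no direction. In 4 results with a value other than 0.00, the sign turned with no call on either side. Relb in females was at 0.10 with library weights and between -0.18 and 0.01 with 1 library left out (0.01 without YSGr female 12). With 1 library left out, Nfkbia in males ranged from -0.07 to 0.29 (-0.07 without SG male 1, -0.01 without SG male 3 or YSGr male 9). Nfkbie in males ranged from -0.05 (without YSGr male 9) to 0.32, and was at 0.39 without SG male 2 and YSGr male 8 together. Icam1 in females was at 0.08 with library weights and between -0.13 and 0.16 with 1 library left out (0.02 without SG female 4, 0.16 without YSGr female 12). The cause was not tested. Over all genes, the calls with the sexes averaged numbered 1617. They were fewer when SG female 4 (1080), 5 (919) or 6 (900) or YSGr female 10 (1029) was left out, and more when YSGr female 12 (2088) or SG male 2 (1855) was. Bcl3, with 5 to 12 reads per SG library, and Relb and Tnfaip3, with fewer than 80 reads in every library, rest on few reads. How much of their spread is counting error was not tested. The replicate numbers run from 1 to 12, so no paired analysis was possible because the groups compared share no number.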
